A study of Homo sapiens with 6 samples.

Results

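The regions described here are 18358 H3AcK9 peaks of untreated SKOV3WT cells that had no counterpart after either HDAC inhibitor (HDACi). H3AcK9 is histone 3 acetylated at lysine 9, and SKOV3 is an established human ovarian carcinoma cell line. The peaks were chosen by their width and by the positions of treated peaks: a peak was counted as lost where it was at least 500 bp wide and shared no base with any peak in the 2 lists of vorinostat-treated cells or the 2 lists of romidepsin-treated cells. Chromosomes 13 and 21 and the sex chromosomes were left out, because romidepsin peaks were missing from chromosomes 13 and X in both lists and from chromosome 21 in 1 of them. On the remaining 20 chromosomes the untreated list held 352674 of its 376666 peaks, of which 191079 were at least 500 bp wide. Lost peaks made up 9.61% of these (95% interval by the exact Clopper-Pearson method 9.48 to 9.74%, for counting error only). This count is what the selection fixes, so the share and all values taken from the treated lists are a description without a test.

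There were 3 ChIP samples of wild-type SKOV3 cells, 1 for each condition: untreated, vorinostat and romidepsin, each inhibitor given at 1 times its IC50 for 24 h. Per the labels, the treated samples were each split in 2 by the sequencing company, and both lists of a drug were counted as 1 sample. The paper and its supplement speak of a split in one place and of independent experiments or biological replicates in others, so what the spread between the lists of a drug measures is uncertain. No difference between conditions therefore has a replicate check. A list says where a peak was called, not how many reads lay there, so the depth behind a peak is unknown and a lost peak is one that was no longer listed.

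Acetylation of lysine 9 on histone 3 loosens the contact between histone and DNA and marks active promoters and enhancers. Acetyltransferases write the mark and histone deacetylases (HDACs) remove it. Vorinostat, a hydroxamic acid, blocks HDACs of several classes, and romidepsin, a cyclic depsipeptide, acts mainly on class I enzymes. Both are known to raise histone acetylation across the cell. A peak called before but not after treatment does not by itself show less acetylation there, since the lists hold no read depth.

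Lost peaks were narrow. Their median width was 622 bp, with 25% under 552 bp, 25% over 780 bp and 10% over 987 bp, against a median of 943 bp for all 191079 peaks. Another 112456 untreated peaks, 58.9%, shared a base with a peak in each of the 4 treated lists and are called kept, with a median width of 1284 bp. The remaining 60265 peaks, 31.5%, shared a base with 1 to 3 lists and are called partly kept, with a median width of 741 bp. The lost peaks covered 12.8 Mb, which is 4.61% of the bases in untreated peaks of this size, and the kept peaks 214 Mb or 77.0%.

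The lost share fell steadily with width. It was 24.3% of the peaks from 500 to 599 bp, 17.1% from 600 to 699 bp, 11.7% from 700 to 799 bp and 8.99% from 800 to 999 bp. Of the peaks from 1000 to 1499 bp, 4.08% were lost, and of those from 2000 to 2999 bp 19 of 15043. None of the 17670 peaks of at least 3000 bp was lost. A wider peak offers more bases for an overlap, and the part this plays was not tested. Of the 161595 untreated peaks under 500 bp, 57391 (35.5%) shared no base with any treated list. The minimum of 500 bp cut through this gradient without a step. From 490 to 499 bp, 969 of 3611 untreated peaks shared no base with a treated list (26.8%), and from 500 to 509 bp 932 of 3552 (26.2%). The first lost peak of exactly 500 bp, at chr1:47736210-47736709, had a score of 1.17, and the first such peak of 499 bp, at chr1:100623372-100623870, a score of 0.948. Coordinates are those of the peak lists, in hg19.

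The widest lost peak, of 2903 bp, was chr2:191117348-191120250. The nearest treated peak lay 1076 bp away in both vorinostat lists, 2290 bp away in the first romidepsin list and 4822 bp away in the second. The second widest, chr9:74254279-74257163, measured 2885 bp. Here the first romidepsin list had a peak 22 bp beyond the edge, while the nearest peak of the other lists was 836 bp away. The third, chr2:198585901-198588274, measured 2374 bp and lay 39 bp from a peak of the first romidepsin list and 584 bp from a kept peak. Next came chr1:168535493-168537809 with 2317 bp and chr7:93845329-93847609 with 2281 bp. Around the peak on chromosome 1, every treated list was empty for at least 1617 bp beyond the edges.

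The authors' score, which played no part in the selection, hardly separated lost from kept peaks. Its median was 0.933 in lost, 0.920 in partly kept and 0.918 in kept peaks, and the highest 10% began at 2.71, 2.66 and 2.55. When the 191079 peaks were divided into 5 classes of equal size by score, the lost share lay between 8.49% and 10.4%, and among peaks under 1000 bp between 15.4% and 16.8%. Lost peaks were found in every class, up to a score of 18.9 at chr6:165773999-165774573, a peak of 575 bp with the nearest treated peak 1503 bp away. The next highest scores among lost peaks were found at chr20:13668600-13669206 (607 bp wide), followed by 12.9 at chr5:110098562-110099576, 12.8 at chr4:19300996-19301518 and 12.6 at chr2:42117122-42117786. All 5 were between 523 and 1015 bp wide and at least 8019 bp from a kept peak. The scale of the score is not given in the sources used here. The supplement heads the column as a p-value, but many scores exceed 1, so whether a high score marks a stronger or a weaker peak is unknown.

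Each list on its own left more peaks without a counterpart than all 4 together, an order that follows from the definition. Without a shared base were 50172 peaks (26.3%) in the first and 46973 (24.6%) in the second vorinostat list, and 44810 (23.5%) and 42134 (22.1%) in the romidepsin lists. Both vorinostat lists lacked 37441 peaks (19.6%) and both romidepsin lists 34388 (18.0%). The 18358 peaks missing from all lists were 53.4% of the latter and a smaller share of the former. These comparisons share the untreated list, so nothing is read from how far they coincide.

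Treated peaks were often close to the place where a peak was lost. The nearest treated peak of any list lay within 100 bp of 3264 lost peaks (17.8%), within 500 bp of 9731 (53.0%) and within 1000 bp of 13491 (73.5%), and the median gap was 453 bp. In single lists the median gap was 1132 and 1143 bp for vorinostat and 1202 and 1210 bp for romidepsin. Treated peaks were closely spaced in general. Over each whole list, neighbouring peaks were a median of 931 and 978 bp apart with vorinostat and 709 and 740 bp with romidepsin. The same gaps were not measured from other places without treated peaks, so the closeness is not read as particular to lost peaks. The farthest 10% of the lost peaks were more than 5380 and 5025 bp from a peak in the vorinostat lists and more than 7863 and 6917 bp from one in the romidepsin lists. The stretch free of peaks in all 4 lists around a lost peak had a median length of 2977 bp, with 25% under 1817 bp and 25% over 5398 bp, and the lost peak took up a median of 23.1% of it. In all, 18016 such stretches held a lost peak, 17680 of them only 1 and none more than 3. Nearly every lost peak thus had a treated-free stretch of its own, and 3 of the stretches were longer than 100 kb.

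The surroundings of lost peaks were covered less by untreated peaks than those of kept ones, and about as much as the 20 chromosomes as a whole. Untreated peaks covered 326 Mb of these chromosomes, 12.4% of their sequenced bases in hg38. Every treated list covered less, with 293 and 280 Mb in the vorinostat lists and 321 and 308 Mb in those of romidepsin. The treated lists held more but narrower peaks, 851523 and 852209 with vorinostat and 884969 and 884230 with romidepsin, against 352674 untreated. Their median widths lay between 205 and 219 bp, against 542 bp for untreated peaks. For lost peaks from 500 bp to under 1000 bp wide (16632 peaks), untreated peaks covered 12.3% of the bases within 50 kb of the centre, not counting the peak itself. The value was 20.9% around 45691 partly kept peaks and 28.4% around 40136 kept peaks in the same range of widths. After vorinostat the coverage around lost peaks was 10.2 and 9.76% in its lists, a ratio of 0.813 to untreated, and after romidepsin 10.6 and 10.1%, a ratio of 0.846. Around partly kept peaks the ratios were 0.831 for vorinostat and 0.942 for romidepsin. Around kept peaks they were 0.875 for vorinostat and 1.04 for romidepsin. The ratio was below 1 in each class with vorinostat, and around lost and partly kept peaks with romidepsin.

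At the centre of partly kept peaks, the treated lists covered between 13.6% (first vorinostat list) and 18.8% (second romidepsin list) of the bases, and 10 kb downstream 17.9, 16.9, 20.1 and 19.1%. In each of the 4 lists the value was lower at the centre than at 10 kb. Sharing a base with 1 to 3 lists was what put these peaks in their class, so this too is set in part by the selection. At kept peaks it was 47.6 and 47.8% for vorinostat and 51.1 and 51.2% for romidepsin, against 26.8, 25.4, 31.2 and 29.8% at 10 kb.

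A view without any selection on the treated lists places the lost peaks among all untreated peaks of their size. Across all 32467 untreated peaks from 500 to 599 bp, vorinostat peaks covered 21.9 and 22.2% of the bases inside in the 2 lists and a mean of 17.6% of equally wide places 10 kb to either side, a ratio of 1.25. Romidepsin peaks covered 25.2% and 20.2%, also a ratio of 1.25. The ratio was 1.34 and 1.33 for peaks from 800 to 999 bp, 1.43 and 1.37 from 1000 to 1499 bp, and 2.08 and 1.78 from 3000 to 4999 bp. In the widest class, from 5000 bp on (7078 peaks), it was lower again, at 1.95 and 1.66. The excess of treated peaks over the surroundings was thus smallest at untreated peaks of the narrow widths where most losses occurred.

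Lost peaks lay far from kept ones. The number of bases to the nearest kept peak had a median of 17518 bp (95% interval from 17057 to 18103 bp), with 25% under 5711 bp and 25% over 56301 bp. Partly kept peaks had a median of 5161 bp, and kept peaks a median of 1473 bp to the next kept peak. Of the lost peaks, 829 (4.52%) were within 1 kb of a kept peak and 2978 (16.2%) were more than 100 kb away. For kept peaks the same shares were 39.5% and 0.975%. The order was the same in each of the 6 ranges of width, for instance 19866, 5778 and 1904 bp for lost, partly kept and kept peaks from 500 to 599 bp, and 15481, 4822 and 1653 bp from 1000 to 1499 bp. Kept peaks are part of the same selection, so these distances describe the arrangement and are no test of it.

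The lost share rose with this distance, which is measured to peaks of the same selection. Among all peaks under 1000 bp from a kept peak it was 1.53%, between 5000 and 10000 bp 10.9%, between 20000 and 50000 bp 24.9%, and beyond 100000 bp 46.5%. The lost peak farthest from a kept one was chr16:62459749-62460286, at 3144793 bp. It was 538 bp wide with a score of 9.60, and had romidepsin peaks 23 and 16 bp away but vorinostat peaks only at 16259 and 4256 bp. The second, chr16:61803669-61804357, at 2857795 bp, was also on chromosome 16. Next came chr15:20010876-20011579 and chr15:20024194-20024709 and chr10:108733610-108734421, at 2619161 bp. Lost peaks were also set apart from other untreated peaks. The nearest untreated peak of any width lay at a median of 2460 bp, against 1302 bp for partly kept and 811 bp for kept peaks.

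Lost peaks had lost neighbours along the chromosome more often than peaks of the other classes did. With all 191079 peaks put in order, 8015 of the lost peaks (43.7%, 95% interval from 42.9 to 44.4%) had another lost peak directly before or after. Of the partly kept peaks 23.3% had a lost neighbour, of the kept peaks 9.17%, and of all 191079 peaks 16.9%. Peaks of the other classes also lay beside their own kind: 63.1% of the partly kept peaks had a partly kept neighbour and 87.8% of the kept peaks a kept one. Partly kept peaks made up 31.5% of all peaks, kept peaks 58.9% and lost peaks 9.61%. The classes are part of the selection, so these shares are a description. Of the lost peaks with a neighbour on both sides, 50.7% had no kept neighbour, 37.9% had 1 and 11.4% had kept peaks on both sides, whereas 52.2% of the kept peaks had. The share differed with spacing. Where adjacent peaks were under 1000 bp apart, 2.70% of the peaks were lost and 16.7% of the lost ones faced a lost peak. Where they were at least 50000 bp apart, the values were 40.4% and 44.5%. The 2 values lay much further apart in close pairs than in distant ones.

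Most runs were short. Single lost peaks accounted for 10343 of the 18358, pairs for 4226 and runs of 3 for 1938. The longest run held 13 lost peaks, from 507 to 690 bp wide, within 807352 bp at chr4:135977540-136784891. Untreated peaks covered 15351 bp of this stretch, of which 7391 bp were in the lost peaks. Vorinostat peaks covered 12012 and 13152 bp, and romidepsin peaks 5502 and 4696 bp, all outside the lost peaks. The stretch therefore still held many treated peaks, 76 and 80 with vorinostat and 48 and 41 with romidepsin, but at other places. Runs of 11 were found at chr5:116810712-117952622, chr7:110232221-111099321 and chr11:24929119-25679882, and a run of 10 at chr12:61237039-62419908. In all 5 runs romidepsin peaks covered fewer bases than untreated ones in both lists. The untreated values include the lost peaks, which the treated lists miss by selection, so this direction is set in part by the selection. In the run on chromosome 5, lost peaks made up 6879 of the 11363 untreated bases, and romidepsin peaks covered 4999 and 5731 bp. The values were 7786 of 15086 with 8690 and 10242 bp on chromosome 7, and 6525 of 11028 with 5025 and 8948 bp on chromosome 11. In the run on chromosome 12, lost peaks made up 5905 of the 12780 untreated bases, and romidepsin peaks covered 9773 and 11421 bp. Outside the lost peaks, both romidepsin lists thus covered more than the untreated list in these runs, and less in the run on chromosome 4. Vorinostat peaks covered more than untreated ones in both lists in 4 of the runs, for instance 17394 and 21458 bp against 15086 bp in the run on chromosome 7.

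Lost peaks were found in most windows of 1 Mb. Of the 2552 windows with an untreated peak of at least 500 bp, 2442 held a lost peak and 110 held none, with a median of 6 and a maximum of 29 per window. The 26.1% of windows with the most lost peaks held 50% of them, and for kept peaks 17.3% of windows did.

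The share of peaks that were lost fell as windows filled up. In the 309 windows with up to 9 peaks, 685 of 1437 were lost (47.7%). The share was 25.7% at 20 to 39 peaks, 10.0% at 80 to 119 and 2.69% at 160 to 249 peaks per window. With peaks under 1000 bp alone, it was 57.1% in the emptiest and 5.40% in the fullest windows. The median width of all peaks rose from 652 to 1085 bp between the same windows, and the part of width in the decline was not tested. Treated peaks were also denser near kept peaks than near lost ones. In the first lists they covered 25.6 against 10.2% with vorinostat and 30.1 against 10.6% with romidepsin, within 50 kb of peaks under 1000 bp. More treated peaks give more overlaps, and this part was not tested either. The number of lost peaks per window was highest in between, at 9.97 in windows with 60 to 79 peaks. The median score of the lost peaks stayed between 0.888 and 0.963 at all densities.

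The windows with the most lost peaks were of medium density. The first, chr6:129000001-130000000, held 29 lost and 34 kept peaks among 96. Untreated peaks covered 136 kb of it, vorinostat peaks 70.5 and 66.0 kb, and romidepsin peaks 79.3 and 76.2 kb. The second, chr6:71000001-72000000, had 27 lost of 86 peaks, the third, chr5:77000001-78000000, and 25 of 93. The window chr5:74000001-75000000 had 23 of 85. The fourth, chr7:46000001-47000000, was denser, with 24 lost and 83 kept peaks among 153, and its covered length went from 249 kb in untreated cells to 156 and 152 kb with vorinostat and 166 and 157 kb with romidepsin. In all 5 windows every treated list covered less than the untreated list, which was also the direction over the 20 chromosomes. The windows were picked for their lost peaks, which the treated lists miss by selection, so this too is set in part by the selection.

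Chromosomes differed widely. Chromosome 4 lost 1718 of 8758 peaks (19.6%), the highest share, followed by chromosome 6 with 14.6%, chromosome 7 with 13.7% and chromosome 14 with 13.6%. The lowest shares were on chromosome 19 with 195 of 9118 peaks (2.14%), chromosome 17 with 3.86%, chromosome 22 with 4.11% and chromosome 20 with 4.35%. The same chromosomes stood at the ends when each drug was taken alone, with 32.5% (vorinostat) and 31.5% (romidepsin) on chromosome 4 and 7.91% and 4.85% on chromosome 19. Among peaks under 1000 bp the share was 29.0% on chromosome 4 and 4.25% on chromosome 19. The median width of lost peaks varied little, from 614 bp on chromosome 18 to 645 bp on chromosome 19, whereas their median distance to a kept peak ranged from 7614 bp on chromosome 22 to 24880 bp on chromosome 18.

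Chromosome 19 is the most gene-dense human chromosome and rich in zinc finger genes, while chromosomes 4 and 18 are gene-poor. Across the 20 chromosomes the lost share went with low gene density, with Pearson's r = -0.71 and Spearman's rho = -0.73 against protein-coding genes per Mb. Without the 2 chromosomes farthest from the median gene density, r was -0.70. Against GC content, r was -0.86 and rho -0.83 (r = -0.84 without 2 chromosomes), and against untreated peaks per Mb r was -0.83 and rho -0.90 (r = -0.90). Gene density and GC content were taken from hg38 for whole chromosomes, and these 3 properties go together, so the values are a description. Chromosome 18, with the fewest genes per Mb (3.32), lost 10.2%.

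Human endogenous retroviruses (HERVs) are remnants of ancient germline infections and were the subject of the study. At 80 HERV loci on the 20 chromosomes, which the study picked on these samples, 159 untreated peaks of at least 500 bp shared a base with a locus. Of these, 5 were lost (3.14%), against 9.61% of all 191079 peaks. The loci were picked for peaks that differed with treatment in these samples, so this count is not independent and nothing is read from its size. Within 10 kb of 12 loci there were 15 lost peaks in all. The number of all untreated peaks in the same reach was not counted, so nothing is read from this either.

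The 5 lost peaks lay entirely inside their locus. In a HERV3 locus the peak chr4:69927859-69928433, 575 bp wide, was lost. In hg38 this locus lies in an intron of UGT2B7, which codes for a glucuronosyltransferase that conjugates steroids and drugs. Listed peaks covered 6347 bp of the locus without treatment, 4215 and 4498 bp in the vorinostat lists, and 4426 and 4203 bp in the romidepsin lists, so treated peaks remained at other places of the locus. In a HERVH locus the peak chr12:133474176-133474826 was lost. The locus lies in an intron of CHFR, a ubiquitin ligase of an early mitotic checkpoint. Covered bases numbered 2007 without treatment, 275 and 287 with vorinostat and 429 in both romidepsin lists.

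A HARLEQUIN locus lost the peak chr1:211866963-211867578. It overlaps an exon of NEK2-DT, a non-coding gene, and had 2189 covered bases without treatment, 535 with vorinostat in both lists, and 397 and 574 with romidepsin. A MER57 locus outside annotated genes lost the peak chr12:58057688-58058198, 511 bp wide. It had 2236 covered bases without treatment, 1697 and 1843 with vorinostat, and 822 and 409 with romidepsin. An unclassified locus that overlaps exons of the zinc finger genes ZNF419 and ZNF773 lost the peak chr19:58007227-58007928. Covered bases there were 7153 without treatment, 2961 and 2829 with vorinostat, and 4385 and 4815 with romidepsin. At each of the 5 loci every treated list covered fewer bases than the untreated list, the lost peak included. The loci were picked for peaks that differed with treatment and are named here for holding a lost peak. This direction is therefore set in part by the selection. At the MER57 locus the difference to the second vorinostat list was smaller than the lost peak itself. The number of peaks did not fall in the same way. The unclassified locus held 7 peaks without treatment, 9 and 10 with vorinostat, and 17 and 12 with romidepsin. At the HERVH locus there were 3 without treatment, 2 and 3 with vorinostat, and 5 in both romidepsin lists. The MER57 locus held 5 without treatment, 6 and 7 with vorinostat, and 5 and 4 with romidepsin.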

How the data were processed

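Peak lists of H3AcK9 ChIP-seq were analysed for 1 untreated, 1 vorinostat and 1 romidepsin sample. The 3 input samples have no list and were not analysed here. Per the labels, the authors used BWA and MACS 1.4.2, and each list was called on its own. The deposited score is the authors' own value per peak, without a stated scale. The labels name hg38, but peaks pass the ends of the hg38 chromosome on 12 of the 20 chromosomes used, and HERV positions given for hg19 in the supplement match the lists, so the coordinates are taken as hg19. The genome and annotation used here were hg38 with GENCODE release 44, so sequences and genes at single peaks were not analysed here. Coordinates were not converted, and the place and genes of each HERV locus come from its hg19 and hg38 positions in the supplement.

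The smallest peak was 127 bp wide in the untreated list and 50 or 51 bp in the treated lists, and the smallest gap between peaks 509 bp against 201 to 205 bp. The lists thus differ in how peaks were bounded, along with the condition, and bounds and condition cannot be told apart.

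Gaps are bases between peak ends. Shares have exact Clopper-Pearson and medians order-statistic 95% intervals, for counting error only. Neighbouring peaks are not independent, so these intervals are too narrow. There is no test, since each condition has 1 sample. Python 3.11.15, NumPy 2.4.6, pandas 2.3.3, SciPy 1.17.1 and Matplotlib 3.10.9 were used. Overlaps, gaps and runs were computed on simulated peaks with known answers, also against bedtools 2.31.1, with 7 of 7 quantities recovered. Regions, lists and rules were chosen with earlier results of these data known. Named are the 5 widest, 5 highest-scoring and 5 most distant lost peaks, the 5 longest runs, the 5 windows with most lost peaks and 1 peak on each side of the minimum width. HERV loci were added after seeing the data. Gene lists and markers of the cell line could not be applied without hg19 gene positions.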

Additional observations from a re-analysis of the deposited data

How the results depend on the processing

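With 1 sample per condition and no test, each of the 13 alternatives gives only a value. No paired analysis was possible because each condition has 1 sample. Without a minimum width, 75749 of 352674 peaks were lost (21.5%), with a median of 14245 bp to a kept peak and 62.6% beside a lost peak. With at least 1000 bp these were 1726 of 88620 (1.95%), 22030 bp and 14.3%. The 2 shares beside a lost peak thus belong to unlike shares lost. With vorinostat alone the values were 37441 (19.6%), 6783 bp and 53.7%, and with romidepsin alone 34388 (18.0%), 8593 bp and 58.0%. With no treated peak allowed within 500 bp they were 8627 (4.51%), 28600 bp and 34.7%. With only the 50% of treated peaks with the higher scores they were 35959 (18.8%), 54137 bp and 54.1%. With the 50% of untreated peaks with the higher scores they were 9220 of 93407 (9.87%), 28478 bp and 42.7%. The first lists alone gave 13181 bp and 51.8%, the second 11057 bp and 47.4%, and peaks covered to less than 10% gave 14053 bp and 52.0%. Their lost peaks numbered 24493 to 26885 (12.8 to 14.1%). With treated peaks of at least 127 bp, chosen after seeing the data, 28027 peaks were lost (14.7%) and 52.9% had a lost neighbour. The cause of these shifts was not tested. Joining peaks across gaps of up to 300 bp, or treated peaks across gaps under 509 bp (chosen after seeing the data), left the 3 values as they were. This says nothing of their stability, since a missing peak of at least 500 bp lies in a treated gap at least as long, and the smallest untreated gap is 509 bp.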

Other observations

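On the chromosomes left out, vorinostat lists can still be set against the untreated list. On chromosome 13, 1608 of 5530 untreated peaks of at least 500 bp shared no base with either vorinostat list (29.1%, exact Clopper-Pearson 95% interval from 27.9 to 30.3%). On chromosome X the share was 31.8% (1125 of 3539 peaks), and on chromosome 21 530 of 2408 peaks had no counterpart (95% interval from 20.4 to 23.7%). The 20 chromosomes used had 19.6%, and chromosome 4, with the highest share among them, 32.5%. Romidepsin peaks numbered 0 in both lists on chromosomes 13 and X, and 11806 and 0 on chromosome 21.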
